A study of Mus musculus with 4 samples.

Results

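The genes described here are 6 matrix metalloproteinases (Mmp2, Mmp3, Mmp9, Mmp10, Mmp13 and Mmp14) and 3 tissue inhibitors of metalloproteinases (Timp1, Timp2 and Timp3). They were taken by name, as the array spots outside the control set whose gene name is one of these symbols. The list of names was made with earlier results of these data known. The 9 genes were covered by 10 of the 39429 probes, and they are 9 of 31694 genes named on the array. RNA was measured on 4 one-color Agilent whole mouse genome arrays to ask how the response of mouse embryonic fibroblasts (MEFs) to the DNA-damaging drug doxorubicin depends on the tumor suppressor p53. The 4 conditions were untreated wild-type (WT, p53+/+) MEFs, WT MEFs given doxorubicin, untreated p53-/- MEFs, and p53-/- MEFs given doxorubicin. Cells given doxorubicin are called treated. MEFs are connective tissue cells grown from embryos, and p53-/- MEFs lack a working Trp53 gene in all cells of the embryo they come from. Each condition had 1 array, all 4 arrays were on 1 slide, and the sources do not give the dose, the time, the strain or the number of embryos behind the arrays.

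Matrix metalloproteinases are zinc-dependent enzymes that cut collagens, proteoglycans and other proteins of the extracellular matrix. They are made as inactive precursors, are switched on by cleavage, and are blocked when a TIMP binds in the active site. In fibroblasts Mmp2, Mmp14 and the TIMPs are usually made without a stimulus, while Mmp3, Mmp9, Mmp10 and Mmp13 are typically induced by cytokines, growth factors and stress through AP-1 and NF-kB.

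Mmp3, Mmp10 and Mmp13 lie in 1 cluster of metalloproteinase genes on mouse chromosome 9, in the order Mmp13, Mmp12, Mmp1b, Mmp3, Mmp1a, Mmp10, Mmp8, Mmp27, Mmp20 and Mmp7. Promoter windows from RefSeq (build GRCm38.p6), each from 250 bases before to 50 bases after the annotated start, were listed for 7 of the 9 genes. Mmp2 and Mmp9 had no entry. An AP-1 motif (TGANTCA, which reads the same on both strands, any base at N) occurred in 3 of the 7 windows, those of Mmp3, Mmp10 and Mmp13, as did TATAAA. Of the 15 other Mmp genes and Timp4 with a window, 5 held the AP-1 motif and 7 held TATAAA, and both occurred in Mmp1a, Mmp1b, Mmp7, Mmp12 and Mmp20, which lie in the same cluster. Among all 32851 windows, searched on both strands, 7.81% held the AP-1 motif, 13.6% held TATAAA and 1.54% held both. The 120 bases before the start of these 3 genes are shown because these are the members that share both motifs. All 3 are on the plus strand, with the AP-1 and TATAAA matches in capitals.
Mmp13, chr9:7272394-7272513: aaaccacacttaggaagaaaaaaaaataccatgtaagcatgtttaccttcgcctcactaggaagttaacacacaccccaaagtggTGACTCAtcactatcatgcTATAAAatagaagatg
Mmp3, chr9:7445702-7445821: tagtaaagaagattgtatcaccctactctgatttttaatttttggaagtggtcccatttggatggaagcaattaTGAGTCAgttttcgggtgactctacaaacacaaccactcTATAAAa
Mmp10, chr9:7502222-7502341: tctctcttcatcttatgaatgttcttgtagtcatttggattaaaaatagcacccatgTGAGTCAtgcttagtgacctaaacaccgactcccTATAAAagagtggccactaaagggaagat

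The AP-1 match begins 35 bases before the annotated start in Mmp13, 46 in Mmp3 and 63 in Mmp10. The PEA3 motif AGGAAG, which is bound by Ets factors, occurred in 5 of the 7 windows against 35.4% of all windows. These are matches to letters in RefSeq windows, and the arrays measured neither binding nor promoter activity.

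**Figure D1:**
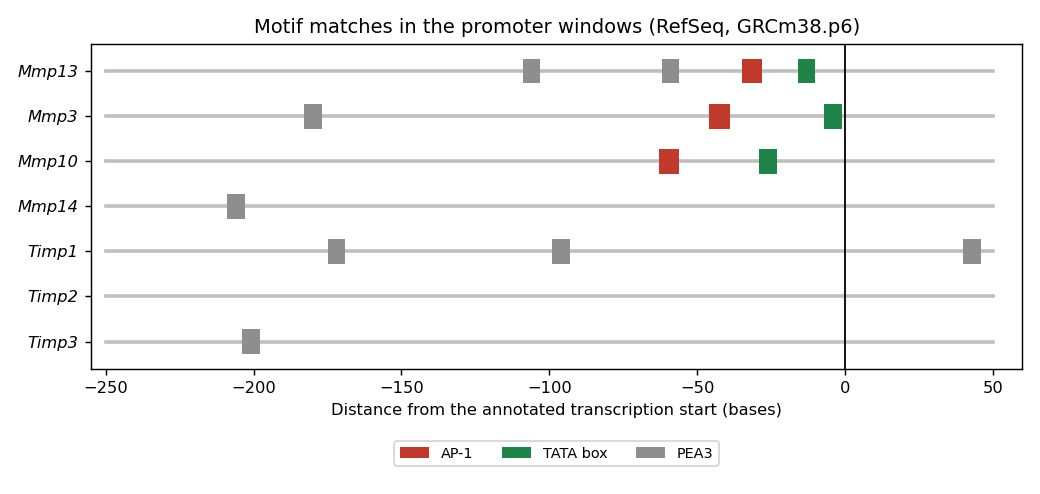
Positions of AP-1 (red), TATA box (green) and PEA3 (gray) matches in the promoter windows of 7 genes, with distance from the annotated transcription start in bases on the horizontal axis. Red and green boxes appear in Mmp13, Mmp3 and Mmp10, and the AP-1 match lies 5′ of TATAAA in each.

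Signals are the processed intensities of Agilent Feature Extraction, in arbitrary units. Log2 ratios were taken after each array was scaled to the 75th percentile of its probes, which was at a signal of 2074 in untreated WT, 1819 in treated WT, 1881 in untreated p53-/- and 2421 in treated p53-/- MEFs. Signals are printed before this scaling, and every fold and bound is of scaled signals, so it can differ from the ratio of the printed signals. A gene was measured in a comparison where Feature Extraction called its spot well above background on both arrays. The lowest signals so called were 56.7, 44.3, 57.9 and 87.1 in the same order, and the brightest of 153 negative control spots reached 108, 77.5, 250.1 and 120. Where only 1 array of a pair qualified, the fold is given as a bound. For it the dim array took the higher of its own signal and the lowest signal so called. Negative controls exceeded that lowest signal on every array, so each bound is nominal and the true fold can be smaller. With 1 array per condition there is no replicate check and no p-value, a difference cannot be told apart from differences between cultures, labeling reactions or places on the slide, and more cells of a kind cannot be told apart from more RNA per cell. The only measure of error was the spread of repeat spots within an array, with an SD of 0.115 for a log2 ratio and 0.163 for a difference of 2 ratios over 253 probes.

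The labels were checked against the targeted gene first. The signal of the Trp53 probe was 1228 (untreated) and 3442 (treated) in WT MEFs, and 442 and 543 in p53-/- MEFs. It was thus well above background on all 4 arrays, and p53-/- over WT MEFs gave a log2 ratio of -1.33 without and -3.08 with doxorubicin. Which part of the gene is deleted is not given in the sources used here. Mdm2, a p53 target that encodes the ubiquitin ligase of p53, had doxorubicin log2 ratios of 2.0 (WT) and 0.47 (p53-/-). Cdkn1a, which encodes the cell cycle inhibitor p21, had 2.08 (1.16 by a second, dimmer probe) and 2.23, from an untreated signal of 28619 in WT and 977 in p53-/- MEFs. All 13 fibroblast markers examined were well above background on every array, with summed signals of 1554900, 1064180, 1117930 and 1201730 in untreated WT, treated WT, untreated p53-/- and treated p53-/- MEFs, of which Col1a2 was the brightest. Of these markers, 5 were at least 2-fold lower with doxorubicin in WT MEFs, 3 in p53-/- MEFs, and none was 2-fold higher in either, other than 1 in p53-/- MEFs with quantile normalization (S100a4). Of all genes measured in WT MEFs, 11% were at least 2-fold higher with doxorubicin and 10.4% lower, and in p53-/- MEFs the shares were 9.26% and 6.89%. After scaling to array medians, 8 (WT) and 5 (p53-/-) of these markers were lower, against 15.9% and 12.4% of all genes.

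With doxorubicin, Mmp3 and Mmp10 were higher in both genotypes, Mmp13 was lower in WT and higher in p53-/- MEFs, Mmp2 and Mmp14 were at least 2-fold lower in p53-/- MEFs and within 1.17-fold in WT MEFs, and Mmp9 was not well above background in treated WT MEFs. Timp3 stayed within 1.5-fold of its untreated level in both genotypes, and so did Timp1 other than with quantile normalization in p53-/- MEFs. Timp2 was lower in both by its brighter probe but not by its second. Of the 9 genes, 7 were measured on all 4 arrays and 8 in each comparison of 2 arrays.

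**Figure D2:**
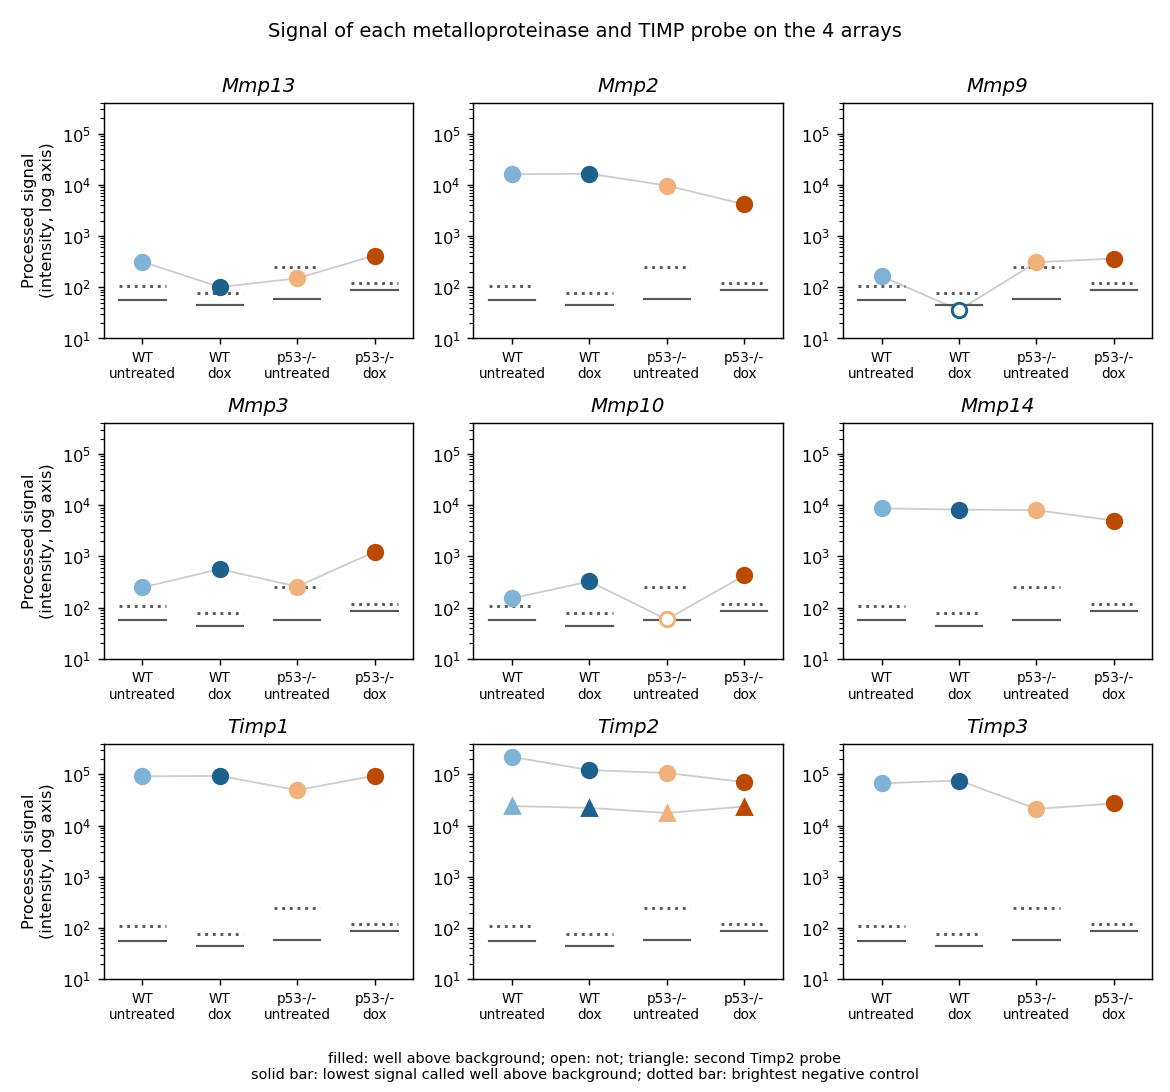
Processed signal (vertical log axis, arbitrary units) of each gene's probe on the 4 arrays, with open symbols where the spot was not well above background, triangles for the second Timp2 probe, solid bars for the lowest signal called well above background and dotted bars for the brightest negative control of each array. Mmp9 in treated WT MEFs and Mmp10 in untreated p53-/- MEFs are the open symbols, and Mmp13 in untreated p53-/- MEFs is the filled symbol below its dotted bar.

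Mmp13 encodes collagenase 3, which cuts fibrillar collagens. Its probe (mm9, chr9:7282762-7282821) had a signal of 316 in untreated WT, 101 in treated WT, 149.6 in untreated p53-/- and 417 in treated p53-/- MEFs. The highest and the lowest signal were thus both in treated cells, and the order of treated and untreated cells was opposite in the genotypes. The log2 ratio of doxorubicin over untreated was -1.46 (2.75-fold lower) in WT and 1.12 (2.17-fold higher) in p53-/- MEFs. The difference of -2.57 (WT minus p53-/-) was lower than that of all but 226 of the 16505 genes measured on all 4 arrays. It was -2.55 with array medians, -2.63 with quantile normalization and -1.86 with normexp background correction. The other alternatives could not change it, as Mmp13 has 1 probe, well above background on all 4 arrays. The p53-/- increase rests on a dim starting point, since 3 of 153 negative control spots on the untreated p53-/- array were at or above the signal of Mmp13. Its log2 ratio there was under 2-fold with array medians (0.82), quantile normalization (0.91) and normexp background correction (0.83), and was not measured when signals had to exceed the brightest negative control. Between genotypes, Mmp13 had a log2 ratio of p53-/- over WT of -0.94 without and 1.63 with doxorubicin.

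Mmp2 encodes gelatinase A, the type IV collagenase that fibroblasts secrete constantly. Its probe (mm9, chr8:95376840-95376899) had a signal of 16117 in untreated WT, 16539 in treated WT, 9721 in untreated p53-/- and 4168 in treated p53-/- MEFs. Both WT signals were close together, and the treated p53-/- signal was the lowest. The doxorubicin log2 ratio was 0.23 in WT and -1.59 (3.0-fold lower) in p53-/- MEFs, where 379 of 16942 genes were lower. The WT value was -0.05 when arrays were scaled to their median, so it has no settled direction. Treated p53-/- MEFs had 5.28-fold less Mmp2 than treated WT MEFs after scaling (log2 ratio -2.40), and this was lower than the ratio of all but 319 of 17880 genes. Without doxorubicin the same comparison gave -0.59.

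Mmp9 encodes gelatinase B, which is typical of leukocytes and of stimulated fibroblasts. Its probe (mm9, chr2:164780620-164780679) was spotted 10 times on each array, so the spread within an array could be seen directly. The mean signal, taken over log values, was 164 in untreated WT, 35.9 in treated WT, 309 in untreated p53-/- and 365 in treated p53-/- MEFs. The spots ran from 138 to 188 in untreated WT MEFs and from 15.8 to 61.6 in treated WT MEFs, without overlap. They ran from 287 to 329.5 in untreated and from 315 to 399 in treated p53-/- MEFs, and these overlapped. All 10 spots were well above background on each array other than that of treated WT MEFs, where 1 of 10 was and where 3 of 153 negative control spots were at least as bright as the mean.

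For that array only a nominal bound can be given, with the lowest signal so called (44.3) standing in for the dim array. The brightest negative control there was 77.5, so the true folds can be smaller. Untreated WT MEFs had at least 3.25-fold more Mmp9 than treated WT MEFs after scaling, and treated p53-/- MEFs had at least 6.18-fold more. In p53-/- MEFs the doxorubicin log2 ratio was -0.12, and -0.42 when arrays were scaled to their median. Untreated p53-/- MEFs had 2.07-fold more Mmp9 than untreated WT MEFs after scaling (log2 ratio 1.05), and 318 of 17278 genes were higher. This ratio was 0.94 with quantile normalization and 0.74 with normexp background correction, so its place above 2-fold depends on the processing.

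**Figure D3:**
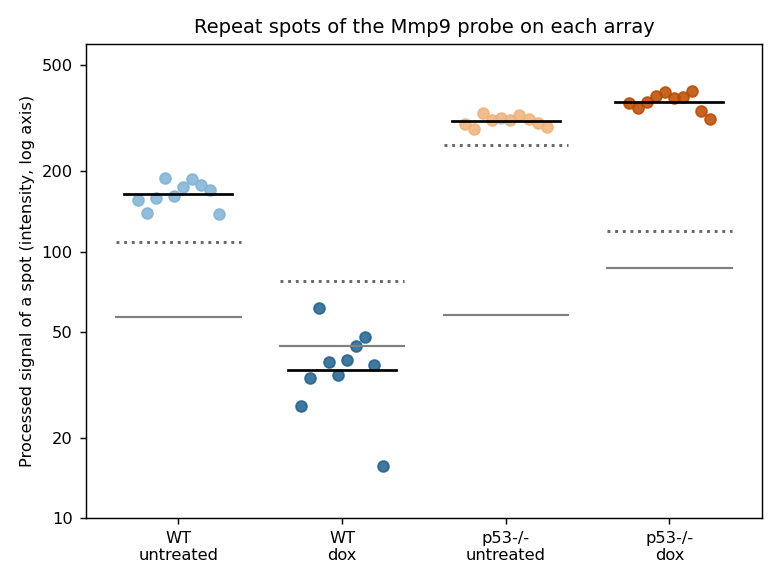
Processed signal (vertical log axis, arbitrary units) of the 10 repeat spots of the Mmp9 probe on each array, with black bars for the mean of the log values, gray bars for the lowest signal called well above background and dotted bars for the brightest negative control. The spots of treated WT MEFs lie between 15.8 and 61.6, below every spot of the other arrays.

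Leukocytes are a known source of Mmp9, and their markers were therefore read beside it. Of 10 macrophage and leukocyte markers, 9, 10, 9 and 8 were well above background in untreated WT, treated WT, untreated p53-/- and treated p53-/- MEFs, and their summed signals were 34950, 43030, 35276 and 37344. The brightest was Itgam, at 26264, 31691, 28368 and 28337 by 1 of its 3 probes, and the sums were mostly this probe. The other Itgam probes were dim, at 77.2, 110, 80.6 and 93.5, and at 205, 26.7, 30.6 and 59.3. The latter was well above background in untreated WT MEFs alone. The Itgam probes thus disagreed on its level, and the sums depend on which of them is read. Ptprc, the pan-leukocyte marker, had signals of 65.3, 66.5, 71.6 and 104, all below the brightest negative control of their array. Of 6 neutrophil markers, 4, 3, 3 and 4 were well above background, with summed signals of 2651, 2541, 2186 and 3469 and Elane as the brightest, while Mpo and Cxcr2 were not well above background on any array. S100a9 had signals of 530.1, 114, 379 and 735, and S100a8 of 139, 41.0, 109 and 437, so both were lowest in treated WT MEFs, as Mmp9 was. The other markers went both ways in WT MEFs. Csf1r, Tyrobp, Lyz2 and Fcgr3, all of macrophages, had doxorubicin log2 ratios of -0.63, -0.69, -0.57 and -0.31 there, lower as Mmp9 was, although the second of 3 Csf1r probes gave 0.13. The neutrophil marker Ly6g had signals of 181, 458, 47.7 and 240.2, with a WT log2 ratio of 1.53, and the macrophage marker Cd14 had 513 in untreated and 6020 in treated WT MEFs, a log2 ratio of 3.74. Cd68, a lysosomal protein of macrophages, was well above background in treated WT MEFs alone, at 211, and Elane, at 1765, 1887, 1625 and 1951, was not lowest there. Their part in the Mmp9 result was not tested.

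Mmp3 encodes stromelysin 1, which cuts proteoglycans and also activates other pro-metalloproteinases. Its probe (mm9, chr9:7455751-7455810) had a signal of 248 in untreated WT, 565 in treated WT, 258 in untreated p53-/- and 1229 in treated p53-/- MEFs. Treated cells were above untreated cells in both genotypes. The doxorubicin log2 ratio was 1.38 (2.60-fold higher) in WT and 1.89 (3.70-fold higher) in p53-/- MEFs, where 406 of 16942 genes were higher. These ratios were at least 1.10 and 1.58 under every alternative. Only array medians, quantile normalization and normexp could change them, as Mmp3 has 1 probe, well above background on every array. The untreated levels of the genotypes were within 1.15-fold of each other after scaling, and the signal of p53-/- MEFs was just above the brightest negative control of its array.

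Mmp10 encodes stromelysin 2, a close relative of Mmp3 with similar substrates. Its probe (mm9, chr9:7510011-7510070) had a signal of 152 in untreated WT, 325 in treated WT, 58.7 in untreated p53-/- and 424 in treated p53-/- MEFs. Only the spot of untreated p53-/- MEFs was not well above background, and 5 of 153 negative control spots were at least as bright there. In WT MEFs the doxorubicin log2 ratio was 1.29 (2.44-fold higher), and it was 0.93 with normexp background correction. In p53-/- MEFs the treated level was 5.62-fold above the untreated one after scaling, with the untreated spot taken at its own signal. The brightest negative control of that array was 250.1, so the true fold can be smaller. Treated MEFs of both genotypes were alike within spot error, at a log2 ratio of -0.03. Untreated WT MEFs were 2.35-fold above untreated p53-/- MEFs, with the same limit.

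Mmp14 encodes a membrane-anchored metalloproteinase that, with Timp2, activates pro-Mmp2 at the cell surface. Its probe (mm9, chr14:55058775-55058834) had a signal of 8685 in untreated WT, 8206 in treated WT, 8021 in untreated p53-/- and 5009.8 in treated p53-/- MEFs. Treated p53-/- MEFs were the lowest, as they were for Mmp2. The doxorubicin log2 ratio was 0.11 in WT, with no settled direction since scaling to array medians gave -0.17, and -1.04 (2.06-fold lower) in p53-/- MEFs. The genotypes were within spot error without doxorubicin, at a log2 ratio of 0.03 (-0.02 after scaling to array medians), and with it the log2 ratio was -1.12.

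Timp1 encodes a secreted inhibitor of most metalloproteinases that also acts as a survival factor. Its probe (mm9, chrX:20451802-20451861) had a signal of 91480 in untreated WT, 93110 in treated WT, 49241 in untreated p53-/- and 94232 in treated p53-/- MEFs. Untreated p53-/- MEFs alone stood apart, below the others. The doxorubicin log2 ratio was 0.21 in WT MEFs (-0.06 after scaling to array medians) and 0.57 in p53-/- MEFs (0.66 with quantile normalization). Between genotypes the log2 ratio was -0.75 without and -0.40 with doxorubicin. Timp1 lies within the synapsin gene Syn1, whose doxorubicin log2 ratios were 1.76 in WT and 0.83 in p53-/- MEFs.

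Timp2 encodes the inhibitor that also carries pro-Mmp2 to Mmp14, and it was the member with 2 probes. The brighter probe (mm9, chr11:118163146-118163205) had a signal of 218901 in untreated WT, 121083 in treated WT, 106228 in untreated p53-/- and 70569.7 in treated p53-/- MEFs. Treated cells were below untreated cells in both genotypes, with doxorubicin log2 ratios of -0.66 (WT) and -0.95 (p53-/-), and p53-/- over WT MEFs gave -0.90 without and -1.19 with doxorubicin.

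The second Timp2 probe disagreed. Its 60 bases match a span of 6778 bases of the minus strand gene (mm9, chr11:118171964-118178741), so it joins exons across an intron and reads spliced RNA. Its sequence is shown because the direction of Timp2 depends on it.
Timp2, second probe: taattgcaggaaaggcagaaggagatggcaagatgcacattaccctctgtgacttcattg
Its signal was 23961 in untreated WT, 22147 in treated WT, 17569.8 in untreated p53-/- and 23540.2 in treated p53-/- MEFs. All 4 signals were close together, with doxorubicin log2 ratios of 0.08 (WT) and 0.06 (p53-/-), within spot error. For p53-/- over WT MEFs it gave -0.31 without and -0.32 with doxorubicin. Both probes were thus lower in p53-/- MEFs, and the response of Timp2 to doxorubicin was not settled by these arrays.

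Timp3 encodes the inhibitor that stays bound to the matrix and also blocks some ADAM proteases. Its probe (mm9, chr10:85811696-85811755) had a signal of 66630.1 in untreated WT, 75789 in treated WT, 21133 in untreated p53-/- and 26964 in treated p53-/- MEFs. Both p53-/- arrays were below both WT arrays. For p53-/- over WT MEFs the log2 ratio was -1.52 (2.86-fold lower) without doxorubicin, where 141 of 17278 genes were lower, and -1.90 (3.74-fold lower) with it. Under every alternative these ratios were -1.42 or lower and -1.76 or lower. Only array medians, quantile normalization and normexp could change them, as Timp3 has 1 probe, well above background on every array. With doxorubicin the log2 ratio was 0.38 in WT MEFs and -0.01 in p53-/- MEFs. Timp3 lies within Syn3, whose probe was dim, with signals of 149.7 in untreated WT, 233 in treated WT, 173 in untreated p53-/- and 118 in treated p53-/- MEFs.

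**Figure D4:**
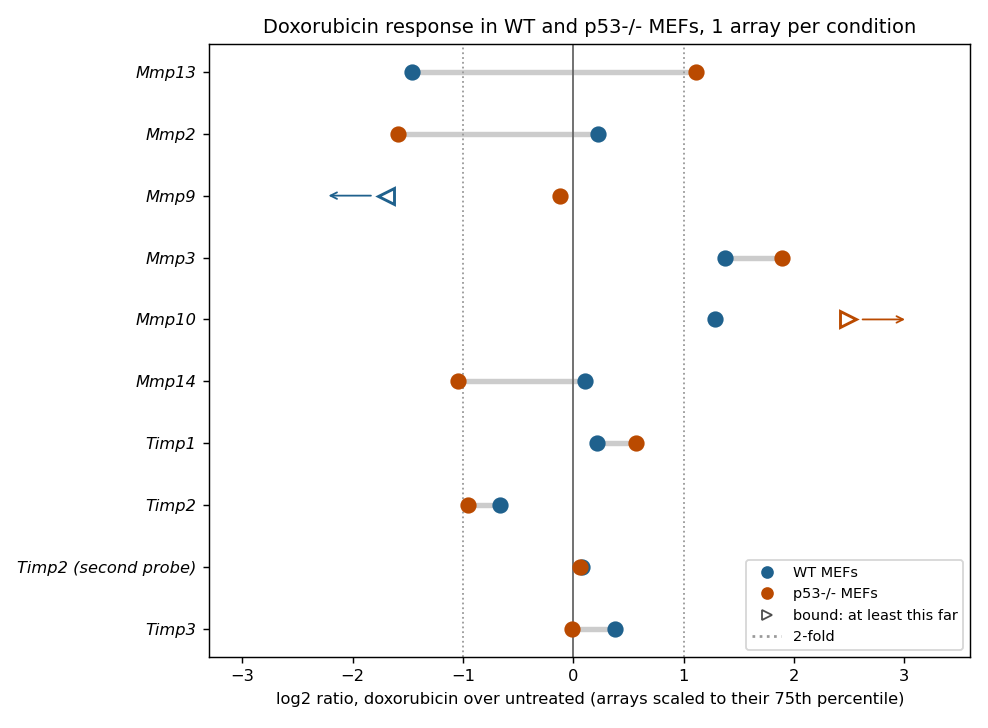
Log2 ratio of treated over untreated MEFs (horizontal axis) for each gene in WT (blue) and p53-/- (orange) MEFs, with open arrowheads for bounds where 1 array was not well above background and dotted lines at 2-fold. Mmp13 spans from -1.46 to 1.12, Mmp3 and Mmp10 lie beyond 2-fold to the right in both genotypes, and both values of the second Timp2 probe are near 0.

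Counted over all 9 genes, 2 of 8 measured members (Mmp3 and Mmp10) were at least 2-fold higher with doxorubicin in WT MEFs, where 11% of 17505 genes were, and 1 (Mmp13) was at least 2-fold lower, where 10.4% were. Mmp9 was also lower by its bound. In p53-/- MEFs, 2 of 8 (Mmp3 and Mmp13) were at least 2-fold higher, where 9.26% of 16942 genes were, and 2 (Mmp2 and Mmp14) were at least 2-fold lower, where 6.89% were. Mmp10 was also higher by its bound. After scaling to array medians, the share of all genes at least 2-fold higher and lower was 7.53% and 15.9% in WT and 5.64% and 12.4% in p53-/- MEFs, and the members gave 2 and 1 in WT and 1 and 3 in p53-/- MEFs.

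For p53-/- over WT MEFs without doxorubicin, 1 of 8 members (Mmp9) was at least 2-fold higher, where 2.15% of 17278 genes were, and 1 (Timp3) was at least 2-fold lower, where 2.62% were. Mmp10 was also lower by its nominal bound of 2.35-fold. With doxorubicin, 1 of 8 (Mmp13) was higher, where 11.9% of 17880 genes were, and 4 (Mmp2, Mmp14, Timp2 and Timp3) were lower, where 10.3% were. Mmp9 was also higher by its bound, of at least 6.18-fold, and the second Timp2 probe does not pass 2-fold in that comparison. The comparisons share arrays, so they do not count as separate evidence. The median log2 ratio over the 8 measured members was -0.67 without and -0.76 with doxorubicin, where the median over all genes was 0.00 in both, but the member left out is a different one in each (Mmp10 and Mmp9). With that member placed at its bound, the median over 9 was -0.75 and -0.40. For the difference of doxorubicin ratios (WT minus p53-/-), 2 of 7 members (Mmp2 and Mmp14) were above 1 on the log2 scale, where 8.37% of 16505 genes were, and 1 (Mmp13) was below -1, where 9.86% were. Of these 7, 1 (Mmp13) was at least 1.5-fold lower in WT and at least 1.5-fold higher in p53-/- MEFs, where 1.84% of all genes were, and 0 showed the opposite order, where 1.03% did.

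The other metalloproteinases on the array were mostly dim. Of 17 further Mmp genes and Timp4, 8 were not well above background on any array (Mmp1a, Mmp7, Mmp12, Mmp20, Mmp24, Mmp27, Mmp28 and Timp4), and 3 were on all 4 arrays. Of all 31694 genes, 16505 were on all 4 arrays. In untreated WT, treated WT, untreated p53-/- and treated p53-/- MEFs, 6, 9, 5 and 4 of these 18 were well above background. The shares of all probes were 57.5%, 62.9%, 56.9% and 58.4% in the same order. Mmp15, a membrane-anchored enzyme, had signals of 82.4 in untreated and 2202 in treated WT MEFs, a log2 ratio of 4.93, and of 107.1 and 76.5 in p53-/- MEFs. Apart from treated WT MEFs, these signals were below the brightest negative control of their array. This was the only one at least 2-fold higher in WT MEFs by a measured ratio, and treated WT MEFs were at least 33.7-fold above treated p53-/- MEFs. Mmp8, the neutrophil collagenase that follows Mmp10 in the cluster, was well above background in treated WT MEFs alone, at a signal of 219, at least 4.40-fold above untreated WT MEFs. Mmp25, a glycolipid-anchored enzyme, was likewise so called in treated WT MEFs alone, at 201, at least 4.04-fold above untreated WT MEFs.

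Mmp11, stromelysin 3, had doxorubicin log2 ratios of -0.30 (WT) and -1.17 (p53-/-). Mmp23, which has no propeptide of the usual kind, had -1.72 and -2.20, and Mmp17 had -0.08 and -0.10. Mmp19 had -2.11 in WT MEFs, from a treated signal of 50.1, below the brightest negative control of 77.5, and was not well above background in treated p53-/- MEFs. Of 5 measured in WT MEFs, 1 was at least 2-fold higher and 2 lower, against 11% and 10.4% of all genes. Of 3 measured in p53-/- MEFs, 0 were higher and 2 lower, against 9.26% and 6.89%. Mmp21 was well above background in untreated WT and treated p53-/- MEFs, at a signal of 136 in the latter, near the brightest negative control of 120. Mmp1b and Mmp16 were so called in treated WT MEFs alone, at 60.3 and 59.6, below the brightest negative control of 77.5.

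Several regulators of metalloproteinase genes were higher with doxorubicin. Of 24 cytokines, transcription factors and NF-kB regulators linked to the control of these genes, 20 were measured in WT MEFs, where 4 were at least 2-fold higher and 1 lower, and 19 in p53-/- MEFs, where 9 were at least 2-fold higher and 0 lower. Of all genes, 11% (WT) and 9.26% (p53-/-) were higher and 10.4% and 6.89% lower. The median log2 ratio was 0.43 and 0.95. After scaling to array medians it was 0.16 (WT) and 0.65 (p53-/-). With that scaling 3 (WT) and 7 (p53-/-) were at least 2-fold higher, where 7.53% and 5.64% of all genes were, and 1 and 0 were lower. Il6, an inflammatory cytokine, had signals of 515 in untreated WT, 649 in treated WT, 633 in untreated p53-/- and 12146 in treated p53-/- MEFs. It stood apart in treated p53-/- MEFs, with a log2 ratio of 3.90 there and of 0.52 in WT MEFs. Nfkbia, an inhibitor and target of NF-kB, had 0.38 in WT and 1.89 in p53-/- MEFs. Cebpd, an acute phase transcription factor, had -0.68 and 1.24 (0.94 after scaling to array medians), and Fosl1, the AP-1 subunit Fra-1, had 3.02 and 1.33. Il1a, an interleukin-1 cytokine, was well above background in treated p53-/- MEFs alone, at a signal of 379, at least 5.09-fold above untreated p53-/- MEFs and at least 6.43-fold above treated WT MEFs. Il1b, Tnf and Osm were not well above background on any array.

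Of 22 activators, inhibitors and receptors of metalloproteinases, 20 were measured in each genotype, and 2 were at least 2-fold higher and 3 lower with doxorubicin in WT MEFs, against 0 and 2 in p53-/- MEFs. These counts are near the shares of all genes, which were 11% (WT) and 9.26% (p53-/-) for higher signals and 10.4% and 6.89% for lower ones. After scaling to array medians, 4 (WT) and 5 (p53-/-) were lower, where 15.9% and 12.4% of all genes were. Pcsk6, a proprotein convertase, had signals of 5732 in untreated WT, 15937 in treated WT, 2277 in untreated p53-/- and 2680.5 in treated p53-/- MEFs. Its doxorubicin log2 ratio was 1.66 in WT and -0.13 in p53-/- MEFs. Reck, a membrane-bound inhibitor of Mmp2, Mmp9 and Mmp14, had -1.30 and -0.19 by its brighter probe, and -0.62 and 0.09 by its second. Plat, tissue plasminogen activator, had -0.42 and 0.79, and Mrc2, a collagen uptake receptor, had -1.96 and -0.92, with -0.83 and -0.10 by its second probe. Reck and Mrc2 are 2 of the 3 counted as lower in WT MEFs. The other, Itgb3, had -2.26 (WT) and -1.65 (p53-/-). Its second probe had signals of 139, 20.4, 123 and 27.4 in untreated WT, treated WT, untreated p53-/- and treated p53-/- MEFs. That probe was not well above background in treated MEFs, so it gave no ratio. With second probes, and Itgb3 thus not measured, the count of lower genes was 0 of 18 in WT and 1 of 18 in p53-/- MEFs. Plg and A2m were not well above background on any array.

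All 18 ADAM and ADAMTS proteases, which are related metalloproteinases, some of which Timp3 can block, were well above background on all 4 arrays. With doxorubicin 1 was at least 2-fold higher and 10 lower in WT MEFs, and 0 and 6 in p53-/- MEFs, where 11% and 9.26% of all genes were higher and 10.4% and 6.89% lower, and the median log2 ratio was -1.14 and -0.49. Adamts15, which cuts proteoglycans, had signals of 1323 in untreated WT, 82.4 in treated WT, 1024 in untreated p53-/- and 949.6 in treated p53-/- MEFs. Treated WT MEFs stood apart, at a log2 ratio of -3.82 against -0.47 in p53-/- MEFs. Its treated WT signal was just above the brightest negative control of 77.5, and the WT ratio was -2.91 with normexp background correction. Adamts4, an aggrecanase, had -2.16 and 0.71, so that it was lower in WT and higher in p53-/- MEFs, as Mmp13 was, although the p53-/- value was 0.42 after scaling to array medians. Adamts7 had 1.04 (0.76 after scaling to array medians) and -0.39, and Adam19 had -1.43 and -2.70.

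All 22 matrix substrates were well above background on all 4 arrays, and none was at least 2-fold higher with doxorubicin, where 11% (WT) and 9.26% (p53-/-) of all genes were. In WT MEFs 10 and in p53-/- MEFs 7 were at least 2-fold lower, where 10.4% and 6.89% of all genes were, with median log2 ratios of -0.76 and -0.77. After scaling to array medians 12 were lower in each genotype, where 15.9% (WT) and 12.4% (p53-/-) of all genes were. Lum, the collagen-binding proteoglycan lumican, had signals of 18970.2 in untreated WT, 594.5 in treated WT, 6819 in untreated p53-/- and 1729 in treated p53-/- MEFs, and doxorubicin log2 ratios of -4.81 and -2.34. Dcn, decorin, had -1.30 in WT and 0.30 in p53-/- MEFs. Vcan, versican, had 0.04 and -1.30 by its brightest probe and 0.80 and -0.74 by its second. The mean over its probes, the third of which was not well above background on any array, gave 0.18 and -0.38, so its 2-fold call in p53-/- MEFs rests on the brightest probe. The WT value was -0.24 after scaling to array medians, so it has no settled direction there. Hspg2, perlecan, had 0.28 and -0.63.

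**Figure D5:**
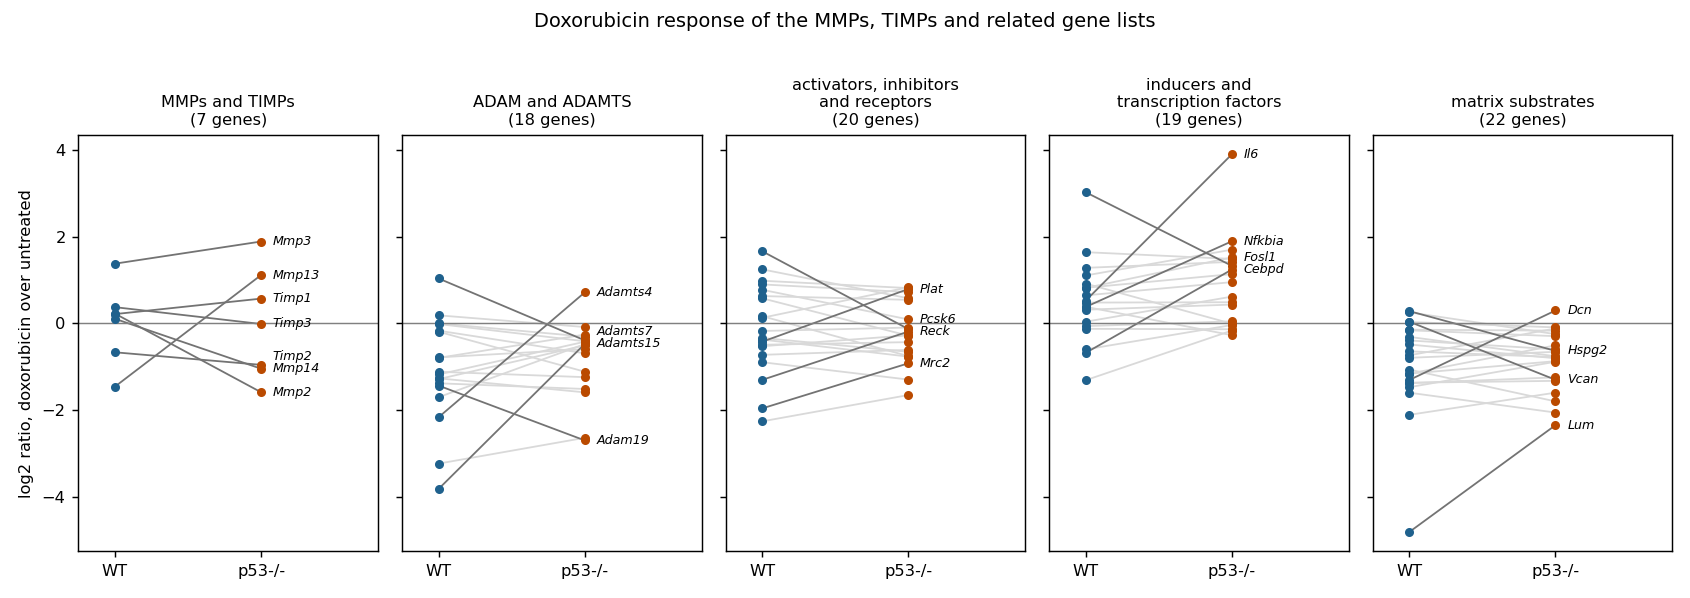
Log2 ratio of treated over untreated MEFs (vertical axis) in WT (blue) and p53-/- (orange) MEFs, joined for each gene measured on all 4 arrays, in 5 lists with genes of the text named. In the list of inducers Il6 runs from 0.52 in WT to 3.90 in p53-/- MEFs, and in the matrix list no gene lies above 1 on the log2 scale.

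Markers of other cell types were read for the same arrays. Of 8 epithelial markers, 4, 6, 4 and 5 were well above background in untreated WT, treated WT, untreated p53-/- and treated p53-/- MEFs, with summed signals of 12035 in untreated WT, 19248 in treated WT, 10229 in untreated p53-/- and 43678 in treated p53-/- MEFs. Krt18 was the brightest and Epcam and Cldn4 were not well above background on any array. These sums were higher with doxorubicin in both genotypes, as Mmp3 and Mmp10 were, but they were mostly Krt18, at 9825, 16189, 8346 and 40299, while Krt8, its usual partner, had log2 ratios of -0.46 (WT) and 0.32 (p53-/-). Krt14, a keratin of basal epithelium, had 1.54 and 1.05. Its partner Krt5 was, by its brighter probe only, well above background in treated WT MEFs alone, at 951, at least 19.1-fold above untreated WT MEFs, and the cadherin Cdh1 was so called in treated MEFs alone, at 56.2 (WT) and 129.6 (p53-/-). Their part in those results was not tested. Of 6 osteoblast and chondrocyte markers, whose cells also make Mmp13, 3, 4, 4 and 4 were well above background, with summed signals of 14604, 8805, 21145 and 15868 and Col2a1 as the brightest, and Bglap was not well above background on any array. Their sum was lower with doxorubicin in both genotypes, while Mmp13 was lower in WT MEFs. The sum was mostly Col2a1, at 13674, 8075, 19459 and 13998. Sox9 had log2 ratios of -0.12 (WT) and 0.41 (p53-/-), and Sp7 was well above background in treated MEFs alone, at 68.2 (WT) and 143 (p53-/-). Acan, aggrecan, had -0.79 and -0.65. Ibsp, bone sialoprotein, was well above background in untreated p53-/- MEFs alone, at 465, at least 6.87-fold above treated p53-/- MEFs. Their part in the Mmp13 result was not tested. Of 6 endothelial markers, 3, 4, 2 and 3 were well above background, with sums of 7696, 8190.0, 5560 and 6177 and Kdr as the brightest, and Cdh5 and Tie1 were not on any array. These sums were mostly Kdr, whose probes disagreed, with log2 ratios of 0.20 (WT) and -0.35 (p53-/-) by the brighter and 2.68 and 1.70 by the second. Pecam1 had -0.62 and -0.13. Vwf, von Willebrand factor, had signals of 68.9, 512, 51.6 and 519. Its untreated WT signal was below the brightest negative control of 108. Vwf had a WT log2 ratio of 3.08 and a p53-/- increase of at least 6.97-fold, higher with doxorubicin in both genotypes as Mmp3 and Mmp10 were. The part of these markers in those results was not tested. Of 4 skeletal muscle markers, 3, 2, 2 and 2 were, with sums of 15140, 7526, 15347 and 11444 and Acta1 as the brightest, and Myod1 was not on any array.

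The genes whose pattern over the 4 arrays was closest to that of a member were named for the 3 members with the largest range among those measured on all 4 arrays, by the distance between mean-centered log2 values over 16504 genes. For Mmp2 they were Ptk7, a receptor-like pseudokinase (distance 0.110), Scamp1 (0.158) and Mvb12b (0.168). Ptk7 had signals of 4652 in untreated WT, 4929.6 in treated WT, 3114 in untreated p53-/- and 1244 in treated p53-/- MEFs. For Mmp3 they were Gm7710 (0.147), Gm6306 (0.176) and Tmem170b (0.201), and for Timp3 they were LOC100044227 (0.146), Erdr1 (0.152) and LOC100047183 (0.231). With 4 arrays such likeness is a description of these arrays.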

How the data were processed

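The authors labeled RNA (200 ng per sample) with Cy3 and used Feature Extraction of Agilent (10.7.3.1) to read the 4 arrays of 1 slide. In the deposited spot intensity, background and within-array trends are already removed and arrays are not normalized to each other. The authors' summary table of intensities was equal to it, within a relative difference of 1e-05, at all 177588 spots compared. The deposited raw spot and local background intensities were used for the normexp alternative, and the deposited flags of 0 or 1 for the calls. The authors' fold changes (Subio Platform) were not used. Positions of probes were taken from the files and are in mm9.

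Spots flagged as outliers (162, 153, 145 and 168 per array) were left out, and 0 spots were saturated. Log2 intensities of repeat spots were averaged and expressed relative to the 75th percentile of their array. The probe with the highest mean stood for a gene, and 2-fold was the threshold. Where only 1 array of a pair was well above background, the dim array took the higher of its own signal and the lowest signal so called. No test was run, and the number of arrays limits the precision. RefSeq (GRCm38.p6) named 30197 of 39429 probes, the members by transcript accession, and the rest kept the name in the file.

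The members and lists were chosen with earlier results of these data known. Named were the 9 members, the other metalloproteinases, Timp4, cluster neighbors and host genes, Trp53, Cdkn1a and Mdm2, the 4 genes with the largest difference of ratios in each list of proteases, activators, inducers and substrates, and the 3 nearest genes of 3 members. The marker genes named, Itgb3, and list genes not above background were chosen after their values were seen. Alternatives were the array median, quantile normalization, normexp (limma, offset 50), 3 other filters on dim probes, the mean of probes, the second probe, the deposited table, and thresholds of 1.5-fold or 3-fold. A slide block could not be used with 1 slide. Simulated arrays with known changes in treated WT MEFs tested spot averaging, scaling, probe choice and the WT doxorubicin ratio. The bounds, the alternatives, the likeness and the motif search were not tested in this way. Python 3.11.15 with numpy 2.4.6, pandas 2.3.3 and matplotlib 3.10.9 and R 4.3.3 with limma 3.58.1 were used.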

Additional observations from a re-analysis of the deposited data

Results flagged for a closer look

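Of the 122 members, list genes and cell type markers that were measured on all 4 arrays, 5 (4.1%) were at least 1.5-fold lower with doxorubicin in WT MEFs and at least 1.5-fold higher in p53-/- MEFs, and 1 (0.82%) showed the opposite order. Of all 16505 genes measured on all 4 arrays, 1.84% and 1.03% did so. The members and lists were chosen with earlier results of these data known, so setting these shares side by side is not a test. For Mmp13 the log2 ratios were -1.46 in WT and 1.12 in p53-/- MEFs, a difference of -2.57. For Adamts4 they were -2.16 and 0.71, a difference of -2.88. For Cebpd, a transcription factor of the C/EBP family, they were -0.68 and 1.24, a difference of -1.92. For S100a9, a neutrophil marker, they were -2.02 and 0.59, a difference of -2.61, and for S100a4, a fibroblast marker, -0.90 and 0.98, a difference of -1.88. Syn3, the host gene of Timp3, had 0.83 and -0.92, a difference of 1.75. With 1 array per condition none of these differences was tested.

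After scaling to array medians the p53-/- value was 0.82 for Mmp13, 0.94 for Cebpd and 0.68 for S100a4, still past 1.5-fold, and 0.42 for Adamts4 and 0.29 for S100a9, which were not. S100a9 was also under 1.5-fold there with quantile normalization (0.51) and normexp (0.54). Syn3 was under 1.5-fold in WT MEFs after scaling to array medians (0.55) and in p53-/- MEFs with normexp (-0.52), and the mean of its probes gave -0.67 and -0.13, so that its order was lost. Mmp13 was near background, at a signal of 149.6 in untreated p53-/- MEFs, where the brightest negative control reached 250.1. Where 1 or both comparisons gave a bound, S100a8 was at least 2.74-fold lower in WT and had a log2 ratio of 1.64 in p53-/- MEFs, Mmp21 was at least 1.98-fold lower in WT and at least 1.82-fold higher in p53-/- MEFs, and Mmp15 had a log2 ratio of 4.93 in WT and was at least 1.58-fold lower in p53-/- MEFs.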

How the results depend on the processing

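Of 39 log2 ratios of the members, 35 kept their sign when arrays were scaled to their median, 37 with the second probe, and all that could be computed under quantile normalization, normexp, the mean of probes, the other filters and the deposited table. The filters and the deposited table cannot change a ratio that stays measured, and the mean of probes and second probe can change Timp2 alone. None of the ratios past 2-fold changed sign. The 4 that did under array medians were near 0 (Mmp2, Mmp14 and Timp1 with doxorubicin in WT MEFs, and Mmp14 between untreated genotypes), and that scaling shifted the median doxorubicin ratio over all genes to -0.27 (WT) and -0.30 (p53-/-). The largest shifts were 0.71 (normexp, the difference of ratios of Mmp13) and 1.01 (second Timp2 probe). Counts of members at 2-fold moved as follows. Higher with doxorubicin in WT MEFs (2) became 1 with normexp, 1 with well above background on all 4 arrays and 0 at 3-fold, and lower (1) became 2 without a filter, 2 at 1.5-fold and 0 at 3-fold. In p53-/- MEFs, higher (2) became 1 with array medians, quantile normalization, normexp, signals above the brightest negative control, or 3-fold and 3 without a filter, and lower (2) became 3 with array medians or at 1.5-fold and 1 at 3-fold. Between untreated genotypes, higher in p53-/- (1) became 0 with quantile normalization, normexp, all 4 arrays or 3-fold, and lower (1) became 2 without a filter, 5 at 1.5-fold and 0 at 3-fold. With doxorubicin, higher (1) became 2 without a filter or at 1.5-fold, and lower (4) became 3 with the mean of probes or the second probe and 2 at 3-fold. Over all genes, counts moved by more than 1.5 times with array medians (lower in WT from 1826 to 2790, in p53-/- MEFs higher from 1568 to 956 and lower from 1168 to 2098), normexp (higher in untreated p53-/- from 372 to 219) and signals above the brightest negative control (higher in p53-/- MEFs from 1568 to 875, lower in untreated p53-/- from 452 to 288). Without a filter the counts of higher and lower genes were 4900 and 2867 in WT against 1930 and 1826, 4716 and 2354 in p53-/- MEFs against 1568 and 1168, 1444 and 1674 between untreated genotypes against 372 and 452, 3838 and 3614 with doxorubicin against 2125 and 1841, and 3622 and 4052 for the difference of ratios against 1381 and 1628. No paired analysis was possible because each condition had 1 array. Values near the negative controls, those of Mmp9 in treated WT MEFs and of Mmp10, Mmp13 and Mmp3 in untreated p53-/- MEFs among them, are the least certain.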
